A study of Mus musculus with 26 samples.

Results

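The genes described here are *Apod*, *Gpx3*, *Plac8*, *Aqp3*, *Serpina3n*, *Vnn1* and *Aadacl2*, 7 of the 56738 gene symbols counted in primary mouse keratinocytes. They were chosen by the measured difference in level between KO and WT libraries, or in the response to cytokines, in these same libraries. Their genotype differences are therefore a description and were given no test. Keratinocytes, the epithelial cells of the epidermis, were isolated from C57BL/6NJ mice at 2 days of age and grown for 4 days on gelatin in EpiLife medium with 0.06 mM CaCl2, a calcium level that holds them in a proliferating, little differentiated state. KO mice were homozygous for the em1(IMPC)J allele of *Pla2g4d*, made with CRISPR-Cas9 to remove exon 3 and backcrossed to C57BL/6NJ. The gene encodes a cytosolic phospholipase A2 of stratified epithelium. Cells were left without cytokines (basal) or given IL17A and TNFα at 20 ng/ml each for 24 h, with wells of 1 animal pooled, which gave basal and treated libraries from each of 5 WT and 8 KO mice (26 libraries from 13 mice). Sex, litter and sequencing batch were not in the labels. The part of litter and batch in a genotype difference cannot be told apart from the genotype. Sex was approached only by a score entered as a covariate in an alternative fit.

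IL17A and TNFα act together on keratinocytes in psoriasis, where they switch on antimicrobial, chemokine and acute phase genes while suprabasal differentiation genes fall. The 7 genes belong to different parts of skin biology. *Apod* encodes apolipoprotein D, a secreted lipocalin that binds arachidonic acid and other small lipids. *Gpx3* encodes the secreted, selenium-containing glutathione peroxidase. *Plac8* encodes a small cysteine-rich protein first described in placenta. *Aqp3* encodes the aquaglyceroporin of the basal epidermis, which carries water and glycerol and is needed for hydration of the stratum corneum. *Serpina3n* encodes a secreted serine protease inhibitor of the acute phase. *Vnn1* encodes pantetheinase (vanin 1), a membrane-anchored enzyme that splits pantetheine into pantothenate and cysteamine. *Aadacl2* encodes a member of the arylacetamide deacetylase family of lipid and ester hydrolases.

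All 7 genes were over the filter on expression, a mean normalized count over 10 across the libraries, which 16893 symbols passed. Total counts per library lay between 42072745 and 78102858. Values are TMM-normalized CPM, reads of the gene relative to all reads counted, given as mean ± SD with n the number of mice, and fold changes are on the log2 scale from edgeR with the standard error (SE). None of the 7 lay on chromosome 2 with *Pla2g4d*. In GRCm39, *Apod* is at chr16:31115010-31135355 and *Plac8* at chr5:100701591-100720111, both on the minus strand, as is *Aqp3* at chr4:41092722-41098183. *Gpx3* (chr11:54793279-54802424), *Serpina3n* (chr12:104372810-104380597), *Vnn1* (chr10:23770586-23781241) and *Aadacl2* (chr3:59914164-59932841) are on the plus strand. *Pla2g4d* itself, counted over all its exons and so no check of the exon 3 deletion, had 3.35 ± 1.36 CPM in basal WT and 2.06 ± 0.716 CPM in basal KO cells, and 52.2 ± 14.9 and 38.1 ± 9.55 CPM with cytokines. The 8 keratinocyte markers summed to between 34137 and 47445 CPM in every library. Of the other cell types, the 11 fibroblast markers summed to between 3.74 and 12.4 CPM and the 12 immune markers to between 21.1 and 56.9 CPM, most of it *Cd68*, whereas *Cd207* (Langerhans cells) and *Cd3g* (T cells) were at 0 in all 26 libraries. Melanocyte markers reached 326 to 659 CPM. In bulk libraries such as these, fewer cells of a type and less RNA per cell cannot be told apart. Without WT replicate 1, the number of genes called between genotypes in the presence of cytokines went from 119 to 558. Values without it are given below for *Aqp3*. Ranges with single mice left out are given for *Apod*, *Serpina3n* and *Vnn1*.

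**Figure D1:**
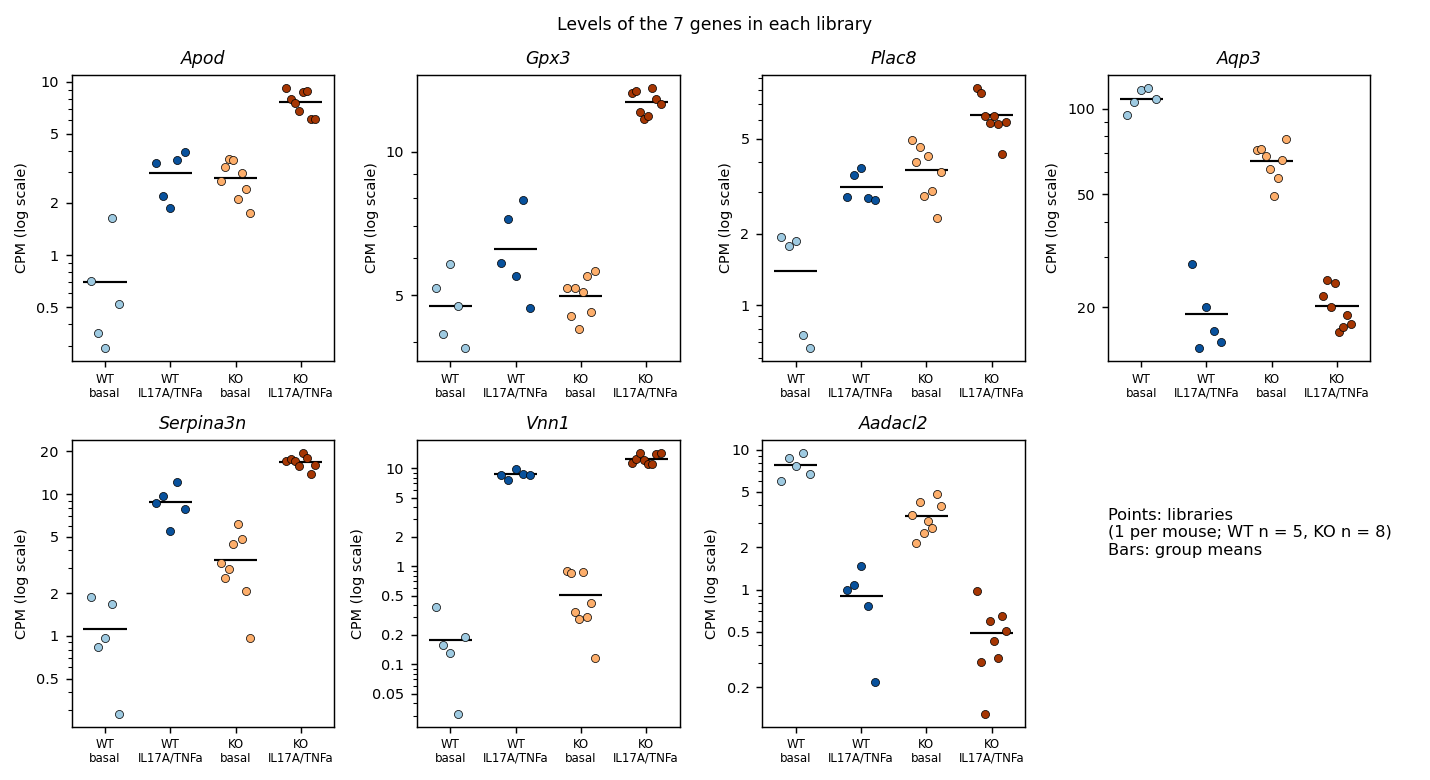
CPM of each gene in each library on a log scale, with 1 point per mouse (WT n = 5, KO n = 8) and a bar at the group mean. *Apod*, *Plac8* and *Serpina3n* step up with KO and with cytokines, *Gpx3* is high only in the treated KO libraries (11.7 to 13.6 CPM), and *Aqp3* and *Aadacl2* drop with cytokines.

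Compared per kilobase of exon, *Aqp3* was the most abundant of the 7 in each group, from 59.4 CPM per kb in basal WT to 10.3 CPM per kb in treated WT cells. *Aadacl2* came next in basal WT cells at 4.85 CPM per kb. *Vnn1* was the lowest there at 0.0515 CPM per kb, yet reached 2.49 CPM per kb in treated WT and 3.62 CPM per kb in treated KO cells. In treated KO cells *Serpina3n* (4.33 CPM per kb) and *Gpx3* (4.15 CPM per kb) followed *Aqp3* (11 CPM per kb).

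*Apod* was nearly silent in basal WT cells, with 0.712, 0.356, 0.290, 1.64 and 0.520 CPM in WT replicates 1 to 5. WT replicate 4 was the high one, with 104 reads where the others had 18 to 41. Basal KO cells held between 1.74 and 3.58 CPM (median 2.83), so that all 8 KO libraries were above all 5 WT libraries. With cytokines the WT libraries had 3.39, 2.20, 1.87, 3.55 and 3.95 CPM, and the KO libraries ranged from 6.07 to 9.26 CPM (median 7.79), again without overlap. A KO level over every WT library was found for 1.91% of all genes under basal conditions and for 0.651% with cytokines, and it is part of what the genes were picked for. The KO to WT difference was 1.96 (SE 0.30) on the log2 scale under basal conditions and 1.36 (SE 0.27) with cytokines. Without WT replicate 4 the basal difference was 2.57. The groups were ordered treated KO, treated WT, basal KO and basal WT. Treated WT (2.99 ± 0.906 CPM, n = 5) and basal KO cells (2.78 ± 0.672 CPM, n = 8) overlapped, so that untreated KO cells held about as much *Apod* RNA as WT cells given both cytokines. Of the 11855 genes whose mean normalized count exceeded 100, *Apod* had the rank 1 KO excess with cytokines and rank 2 under basal conditions. Among all 16893 genes tested its ranks were 43 and 34. High ranks go with the choice of the genes by these differences. The noncoding gene *Gm41442* overlaps 782 of its exon bases on the opposite strand and had 0 to 32 reads (median 7).

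*Gpx3* behaved differently, with basal levels that overlapped between genotypes. Basal WT libraries had 5.17, 4.15, 5.83, 4.75 and 3.88 CPM, and basal KO libraries had 4.25 to 5.61 CPM (median 5.13), inside the WT range. With cytokines WT libraries had 5.86, 7.23, 5.49, 7.93 and 4.69 CPM. Treated KO libraries stood at 11.7 to 13.6 CPM (median 12.7), all 8 of them above each other library of the series. The KO to WT difference was 0.07 (SE 0.11) under basal conditions and 1.02 (SE 0.11) with cytokines, an interaction of 0.96 (SE 0.16). In single mice the cytokine response was between -0.09 and 0.80 in WT, with 4 of 5 mice higher, and between 1.16 and 1.57 in KO, with 8 of 8 higher. On the opposite strand of chromosome 11, exons of *Tnip1*, an inhibitor of NF-κB signalling, cover 2603 of the 3062 exon bases of *Gpx3* in the annotation used here. *Tnip1* had 43.8 ± 3.60 CPM in basal WT, 74.7 ± 4.40 in treated WT, 50.9 ± 4.46 in basal KO and 72.3 ± 5.39 CPM in treated KO cells. The averaged cytokine effect on *Tnip1* was 0.61 (adjusted p = 8.37e-13 from edgeR). Its KO to WT difference was 0.22 under basal conditions (adjusted p = 0.0244 from edgeR, under the fold threshold) and -0.05 with cytokines (adjusted p = 0.799 from edgeR), an interaction of -0.27 (adjusted p = 0.251 from edgeR). The libraries were strand-specific, but whether strand was used in counting was not given in the sources used here, so the share of reads between the pair is uncertain.

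*Plac8*, like *Apod*, was higher in KO cells and with cytokines, with smaller differences. The order of its groups was another one, with treated KO, basal KO (mean 3.71 CPM), treated WT (mean 3.15 CPM) and basal WT. Basal WT libraries had 1.94, 1.78, 1.87, 0.755 and 0.662 CPM, with WT replicates 4 and 5 low. Basal KO libraries had 2.32 to 4.96 CPM (median 3.81), and all 8 were above the WT libraries. With cytokines the WT libraries had 2.85, 3.52, 3.78, 2.82 and 2.78 CPM, and the KO libraries 4.33 to 8.20 CPM (median 6.07), again all above WT. The genotype difference was 1.40 (SE 0.23) under basal conditions and 0.99 (SE 0.22) with cytokines. Basal KO and treated WT cells overlapped, as they did for *Apod*. Basal KO and treated KO libraries overlapped as well, which they did not for *Apod*. Counts of *Plac8* were even numbers in 25 of 26 libraries, so that both mates of a fragment may have been counted and the number of fragments may be lower than the counts.

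*Aqp3*, the glycerol channel, was the only one of the 7 with over 50 CPM in any group mean. Basal WT libraries had 94.8, 105, 116, 119 and 108 CPM. Basal KO libraries had 49.3 to 78 CPM (median 67.1), and each lay below each WT library, as 1.12% of all genes did. With cytokines the genotypes came together, at 28.5, 14.4, 20.1, 16.5 and 15.1 CPM in WT and 16.5 to 24.9 CPM (median 19.5) in KO cells. WT replicate 1 was the highest treated library. The log2 difference between KO and WT was -0.73 (SE 0.13) under basal conditions and 0.09 (SE 0.13) with cytokines, and the interaction was 0.82 (SE 0.19). Without WT replicate 1, the difference with cytokines was 0.30 and the interaction 1.08.

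*Serpina3n*, the acute phase protease inhibitor, had 1.87, 0.830, 0.966, 1.67 and 0.284 CPM in basal WT libraries. Basal KO libraries spread over 0.968 to 6.20 CPM (median 3.11), and 7 of 8 were above every WT library. KO replicate 8 was the exception. With cytokines WT libraries had 8.70, 9.70, 5.53, 12.2 and 7.85 CPM, and KO libraries lay close together at 13.9 to 19.5 CPM (median 17.1), all above WT. The genotype difference was 1.57 (SE 0.33) under basal conditions and 0.94 (SE 0.29) with cytokines. The basal difference moved between 1.35 and 1.82 as single mice were left out. The coefficient of variation over KO mice was 48.8% under basal conditions and 9.83% with cytokines.

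*Vnn1* was at the edge of detection without cytokines. Basal WT libraries had 22, 8, 8, 2 and 8 reads, or 0.0315 to 0.382 CPM, and basal KO libraries had 6 to 66 reads, or 0.116 to 0.894 CPM (median 0.383). Of the 8 basal KO libraries, 4 were above every WT library, so the ranges overlapped. With cytokines the WT libraries had 8.53, 7.53, 9.81, 8.65 and 8.49 CPM and the KO libraries 10.9 to 14.3 CPM (median 12.2), all 8 above WT. The genotype difference was 1.55 (SE 0.40) under basal conditions, where it moved between 1.25 and 2.07 as single mice were left out, and 0.54 (SE 0.26) with cytokines. The interaction was -1.01 (SE 0.47) and moved between -1.53 and -0.71 as single mice were left out.

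*Aadacl2* was higher in WT than in KO cells. Basal WT libraries had 5.97, 8.75, 7.63, 9.49 and 6.74 CPM, and basal KO libraries had 2.16 to 4.84 CPM (median 3.25), all 8 below WT. With cytokines little was left in either genotype, with 0.988, 1.07, 1.47, 0.759 and 0.217 CPM in WT and 0.130 to 0.977 CPM (median 0.468) in KO libraries, and 1 of 8 KO libraries was below the WT range, where 0.432% of all genes had every KO library below. The genotype difference was -1.19 (SE 0.29) under basal conditions and -0.87 (SE 0.33) with cytokines. Treated libraries held only 12 to 76 reads in WT and 6 to 50 in KO cells. Among the same 11855 genes *Aadacl2* had the rank 1 KO deficit under basal conditions, and among all 16893 genes tested it had rank 90.

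**Figure D2:**
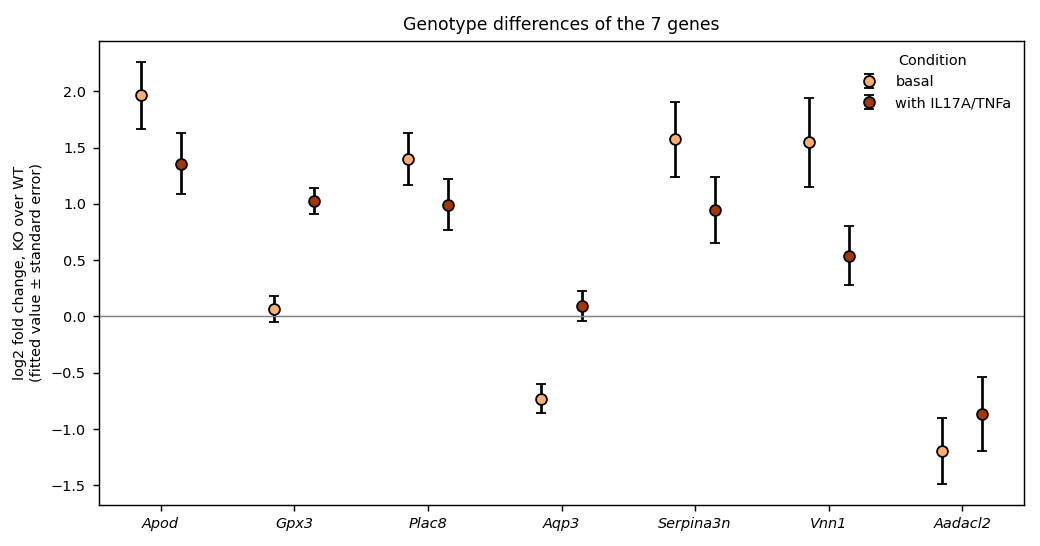
Fitted log2 fold change of KO over WT cells with its standard error, under basal conditions and with IL17A and TNFα. *Apod*, *Plac8*, *Serpina3n* and *Vnn1* are positive in both conditions, *Aadacl2* is negative in both, *Gpx3* is near 0 under basal conditions only and *Aqp3* is near 0 with cytokines only.

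The cytokine effect averaged over the 13 mice is uncorrelated, under equal variances, with the genotype contrasts and the interaction by which the genes were chosen, and it was tested. The SD of log2 CPM differed between groups, however. For *Vnn1* it was 1.09 in basal WT, 0.135 in treated WT, 0.971 in basal KO and 0.171 in treated KO cells. The averaged effect is therefore not fully separate from the choice of the genes, and its p is read with that limit. All 7 genes passed (adjusted p under 0.1 and fold change over 1.5), where 13.6% of all genes did, 8.19% higher and 5.37% lower. *Vnn1* rose by 4.98 (SE 0.23, adjusted p = 5.17e-17 from the quasi-likelihood test of edgeR, adjusted by Benjamini-Hochberg over all genes), which ranked 22 among the 16893 genes tested. *Serpina3n* rose by 2.55 (SE 0.21, adjusted p = 3.98e-11 from edgeR) and *Apod* by 1.69 (SE 0.19, adjusted p = 1.17e-08 from edgeR). *Gpx3* rose by 0.98 (SE 0.077, adjusted p = 1.16e-11 from edgeR) and *Plac8* by 0.91 (SE 0.15, adjusted p = 1.11e-05 from edgeR). *Aadacl2* fell by 2.89 (SE 0.23, adjusted p = 1.23e-11 from edgeR) and *Aqp3* fell by 2.01 (SE 0.093, adjusted p = 7.44e-17 from edgeR). Of these genes 6 moved in 1 direction in all 13 mice, as 10.4% of all genes did upward and 8.9% downward, and *Gpx3* was higher in 12 of 13. The median of all genes was 0.01. The averaged value hides the unequal response of *Gpx3*, which was 0.39 (SE 0.12) in WT and 1.35 (SE 0.099) in KO cells. For *Aqp3* the values were -2.52 (SE 0.15) in WT and -1.70 (SE 0.12) in KO cells, and for *Vnn1* 5.60 (SE 0.39) in WT and 4.59 (SE 0.28) in KO cells.

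**Figure D3:**
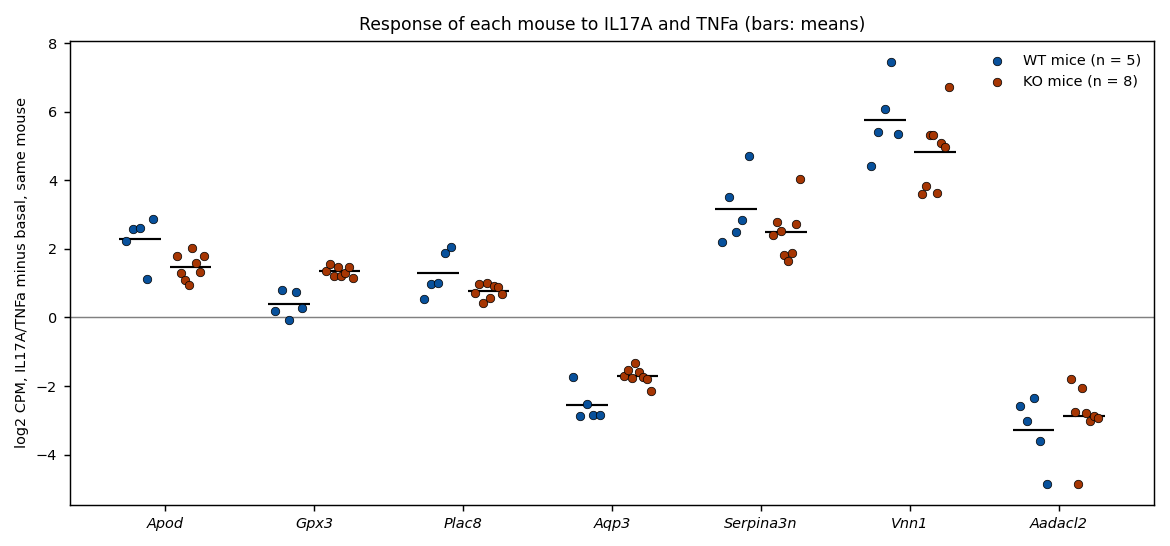
Change in log2 CPM between the treated and the basal library of the same mouse, with 1 point per mouse and a bar at the mean of 5 WT or 8 KO mice. *Gpx3* responses of KO mice (1.16 to 1.57) lie above those of WT mice (-0.09 to 0.80), and the other genes overlap between genotypes.

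*Aadacl2* lies on chromosome 3 beside relatives of its family. *Aadac*, the family's founding hydrolase, starts 0.297 kb after its end on the same strand, and *Aadacl2fm1* lies 68.8 kb away. *Aadac* had 3.31 ± 0.963 CPM in basal WT and 1.19 ± 0.259 CPM in basal KO cells, a difference of -1.47 (adjusted p = 0.00117 from edgeR), where 2.68% of all genes were called (1.61% higher and 1.07% lower in KO), and fell with cytokines by 2.39 (adjusted p = 4.63e-10 from edgeR). *Aadacl2fm1* had 3.24 ± 1.10 CPM in basal WT and 1.96 ± 0.546 CPM in basal KO cells and fell with cytokines by 4.90 (adjusted p = 8.21e-12 from edgeR), to 0.0992 and 0.0711 CPM. Reads past the end of *Aadacl2* and reads of *Aadac* may be hard to part at this distance, which was not tested. No window of 50 bases of the *Aadacl2* transcripts occurred in a transcript of another gene. Of the 26 AADAC family and carboxylesterase genes listed, 7 were tested. *Aadac* and *Aadacl2fm1* fell with cytokines, *Ces2c* rose by 1.34 (adjusted p = 4.12e-05 from edgeR), and *Ces2f* was lower in basal KO cells (log2 fold change -0.74, adjusted p = 0.00183 from edgeR).

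The regions before the starts of *Aadacl2* and *Aadacl2fm1* are shown because both genes fell with cytokines and the windows align over most of their length. In a local alignment of the 250 bases before each start (RefSeq, build GRCm38.p6, gene strand, while the counts were made on mm39), 156 of 190 aligned columns matched (82.1%). Capitals mark runs of at least 8 matching bases.
Aadacl2: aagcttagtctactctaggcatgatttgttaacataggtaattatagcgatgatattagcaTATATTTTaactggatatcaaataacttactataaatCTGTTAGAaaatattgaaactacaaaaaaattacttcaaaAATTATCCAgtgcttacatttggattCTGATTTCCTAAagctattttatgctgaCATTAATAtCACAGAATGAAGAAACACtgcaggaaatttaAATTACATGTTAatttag
Aadacl2fm1: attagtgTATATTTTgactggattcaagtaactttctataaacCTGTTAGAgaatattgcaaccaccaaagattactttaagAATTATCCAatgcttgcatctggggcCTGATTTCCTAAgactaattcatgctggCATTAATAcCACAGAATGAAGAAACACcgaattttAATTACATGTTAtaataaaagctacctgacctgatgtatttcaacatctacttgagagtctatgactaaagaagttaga
The first is chr3:60006493-60006742 and the second chr3:59924964-59925213 on the plus strand of that build. Neither window held the letters of an NF-κB motif described next, GGG and CC with any 5 bases between them. The window of *Aadac*, which also fell with cytokines, held 1 match to these letters and aligned with that of *Aadacl2* over only 29 columns.

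*Serpina3n* had most matches to these letters among the 6 of 7 genes with a promoter in the RefSeq table (*Vnn1* had no entry). The motifs searched on both strands were GGG, any 5 bases and CC for NF-κB, TGANTCA for AP-1 and TTGCNNAA for C/EBP, factors that IL17A and TNFα are known to engage. They occurred in 45.8%, 6.75% and 9.56% of 32851 promoter windows of 250 bases. Capitals mark the NF-κB matches in the 250 bases before *Serpina3n* (GRCm38.p6 chr12:104406458-104406707, plus strand), which are 4 matches in 2 overlapping pairs of opposite strands, with their first letters 171, 170, 43 and 42 bases before the start.
Serpina3n: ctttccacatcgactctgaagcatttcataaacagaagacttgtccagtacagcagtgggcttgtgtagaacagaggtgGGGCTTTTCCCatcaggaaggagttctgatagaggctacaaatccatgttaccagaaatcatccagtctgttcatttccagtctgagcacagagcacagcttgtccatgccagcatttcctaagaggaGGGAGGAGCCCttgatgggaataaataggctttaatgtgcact
*Apod*, *Gpx3* and *Aqp3* held 1 NF-κB match each, and *Aadacl2* held none of the motifs. *Plac8* had 2 windows, before different starts on the minus strand. The window at chr5:100563097-100563346 held 1 C/EBP match 12 bases before its start. The window at chr5:100572206-100572455, farther upstream, held none of the motifs. A match describes letters and not a bound site, and genes that rose and the fallen *Aqp3* had them alike.

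*Vnn1* and its neighbour *Vnn3*, 24.4 kb apart on chromosome 10, both rose with cytokines. The difference between them in genotype order was not tested. *Vnn3* had no read in the 5 basal WT libraries and in 6 of 8 basal KO libraries. With cytokines it reached 8.51 ± 2.61 CPM in WT cells (n = 5), at least 783-fold above a floor of 3 reads over the basal WT group, and 5.88 ± 1.44 CPM in KO cells (n = 8). Whereas each treated KO library was above WT for *Vnn1*, the WT mean was the higher one for *Vnn3*, whose genotype difference with cytokines was not called. None of the other 14 genes of coenzyme A turnover was called in the averaged cytokine effect, so that among the 15 listed genes *Vnn3* alone passed. Of all genes 13.6% passed.

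*Serpina3n* belongs to the clade A serpins, a cluster on chromosome 12 that has expanded in the mouse. Of its 22 listed relatives, 9 were tested and 2 called in the averaged cytokine effect, against 13.6% of all genes. Between genotypes with cytokines, edgeR called 1 of the 9 and DESeq2 3. *Serpina3m*, 11.7 kb away, rose by 3.85 (adjusted p = 4.88e-07 from edgeR) but stayed low and overlaps *Serpina3k* on its strand, at 0.286 CPM in treated WT and 1.01 CPM in treated KO cells. *Serpina12* (vaspin) fell by 3.19 (adjusted p = 2.95e-11 from edgeR) and was lower in treated KO than in treated WT cells, at 0.764 ± 0.405 against 2.07 ± 0.896 CPM (adjusted p = 0.0608 from edgeR), where 0.704% of all genes were called (0.148% higher and 0.556% lower in KO). This call of *Serpina12* was lost without any of WT replicates 2, 3, 4 or 5 or KO replicates 1, 3, 5 or 6. Of the 50-base windows of *Serpina3n* transcripts, 3.30% also occur in transcripts of other genes of the cluster, so a small part of its reads could be shared.

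**Figure D4:**
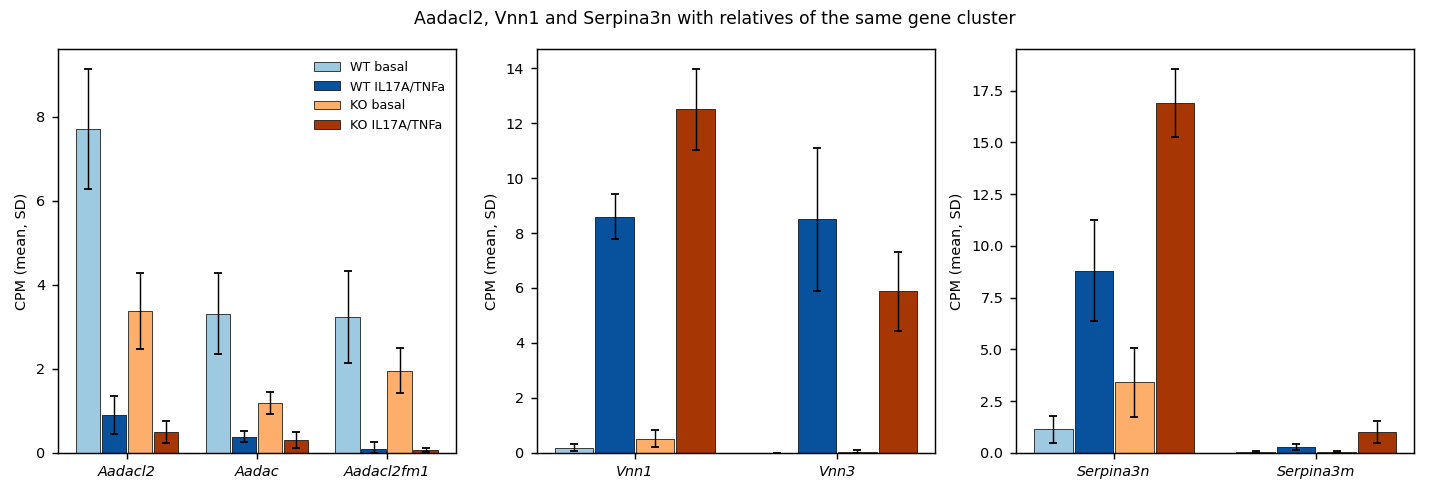
CPM (mean with SD, axis from 0; WT n = 5, KO n = 8) of *Aadacl2*, *Vnn1* and *Serpina3n* beside relatives from the same gene cluster. The *Aadacl2* group is highest in basal WT cells, *Vnn1* is highest in treated KO but *Vnn3* in treated WT cells, and *Serpina3m* stays at about 1 CPM or lower.

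*Serpina3n* is also an acute phase gene. Of 16 acute phase genes 9 were tested and 7 called higher with cytokines, where 8.19% of all genes were. The median of the 9 was 3.15 against 0.01 over all genes. *Saa3* (serum amyloid A) rose by 6.15 (adjusted p = 4.69e-18 from edgeR), *Lcn2* (lipocalin 2) by 5.75 (adjusted p = 7.92e-22 from edgeR), *Saa1* by 5.11 and *Steap4*, a metalloreductase, by 3.58. *Cp* (ceruloplasmin) rose by 2.38, while *Hpx* (hemopexin) at 0.26 and *Orm1* (orosomucoid) at 0.05 were not called. Between genotypes edgeR called 1 of the 9 under basal conditions (2.68% of all genes), where DESeq2 called 3. Neither called any with cytokines (2 at an unadjusted p under 0.05), where edgeR called 0.704% of all genes. Complement *C3* was higher in basal KO cells, at 4.30 ± 2.13 against 1.71 ± 1.66 CPM (log2 fold change 1.33, adjusted p = 0.0272 from edgeR), a call lost without WT replicate 4 or when only basal libraries were fitted.

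In the other gene lists, calls of the averaged cytokine effect are given beside 13.6% of all genes (8.19% higher and 5.37% lower). Of 14 lipocalin and apolipoprotein genes, listed for *Apod* by protein class or by name and not all related to it, 7 were tested and 4 called. *Lcn2* and *Apol9b* (1.2, adjusted p = 0.0594 from edgeR) rose, while *Apoc1* (-1.15) and *Apoe* (-0.71) fell. *Apol9b*, at a mean normalized count of 26.7, rose by 2.53 in WT cells and was not called in KO cells (0.37). Between genotypes edgeR and DESeq2 called none of the 7 (1 in each condition at an unadjusted p under 0.05). Of 23 genes listed for *Gpx3*, which were glutathione peroxidases or selenoproteins, 21 were tested and 1 called. *Gpx7* rose by 0.65 (adjusted p = 0.0161 from edgeR; not called without WT replicate 2), and *Gpx2*, the epithelial peroxidase, was higher in basal KO cells at 6.19 ± 2.03 against 3.35 ± 1.46 CPM (adjusted p = 0.0183 from edgeR). Of 20 aquaporin and glycerol genes 9 were tested and 2 called, and with *Aqp3* falling, *Gk* (glycerol kinase) rose by 1.97 (adjusted p = 8.50e-23 from edgeR) and *Pld2*, a phospholipase D known to pair with *Aqp3* in keratinocytes, by 0.64 (adjusted p = 5.63e-14 from edgeR). *Cnfn* (cornifelin), the relative of *Plac8* in the cornified envelope, rose by 2.0 (adjusted p = 9.65e-13 from edgeR). Its mean went from 104 to 508 CPM in WT cells and was 106 CPM without and 374 CPM with cytokines in KO cells. It was not called between genotypes. In the interaction, edgeR called none of the 92 genes tested in the 9 lists (13 at an unadjusted p under 0.05, 1 called by DESeq2 and 2 differentiation genes with the mouse as a block), where it called 0.219% of all genes (0.0355% positive and 0.184% negative).

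Keratinocyte differentiation moved beside these genes. Of 16 differentiation genes tested, 12 fell with cytokines (median -2.13), where 5.37% of all genes fell, with *Krt10* falling by 5.40 and *Krt1* by 4.75. Between genotypes, 6 were lower in KO cells under basal conditions (median -0.45; 1.07% of all genes) and 9 with cytokines (median -0.75; 0.556% of all genes). The count with cytokines was 4 with the mouse as a random block, and as single mice were left out it ran from 3 (without WT replicate 3) to 12 (without WT replicate 1 or KO replicate 8), against 3 (without WT replicate 2 or KO replicate 1) to 8 (without WT replicate 1 or KO replicate 8) under basal conditions. *Krt1* was lower in KO cells by a log2 fold change of -0.75 under basal conditions (adjusted p = 0.00776 from edgeR) and -1.42 with cytokines (adjusted p = 0.000146 from edgeR). The part of differentiation in the differences of the 7 genes was not tested. *Apod*, *Gpx3* and *Serpina3n* are also abundant in dermal fibroblasts. The sum of the 11 fibroblast markers was 6.58 to 12.4 CPM in basal WT, 4.76 to 10.7 in basal KO, 6.31 to 11.5 in treated WT and 3.74 to 8.06 CPM in treated KO cells, and of the 9 markers tested edgeR and DESeq2 called none between genotypes (0 under basal conditions and 2 with cytokines at an unadjusted p under 0.05). Single markers differed from the sum, since the mean of *Postn* was 1.14 CPM in basal and 1.2 CPM in treated KO cells, against 0.852 and 1.0 CPM in WT cells. Of the immune markers, 6 of 12 passed the filter, and edgeR and DESeq2 called none between genotypes (1 in each condition at an unadjusted p under 0.05). Of 7 endothelial markers 3 passed, and the sum of all 7 was 2.47 to 4.44 CPM in basal WT, 2.44 to 5.62 in basal KO, 4.06 to 6.74 in treated WT and 5.23 to 6.86 CPM in treated KO cells. *Pecam1*, an endothelial adhesion molecule, was higher in basal KO than in basal WT cells by edgeR and DESeq2, at a mean of 1.59 against 0.816 CPM. *Vwf* went the other way, at 1.08 against 1.40 CPM, and *Kdr* had 1.33 against 1.08 CPM, neither of them called. *Emcn* and *Cldn5* were at 0 in all 26 libraries. All 8 melanocyte markers passed, with a sum of 453 to 641 CPM in basal WT, 493 to 659 in basal KO, 351 to 502 (median 488) in treated WT and 326 to 429 CPM (median 353) in treated KO cells. Between genotypes edgeR and DESeq2 called none of the 8 (2 under basal conditions and 5 with cytokines at an unadjusted p under 0.05), and none of the 2 sebocyte markers tested (0 and 1). The 8 hair follicle markers, most of their sum from *Sox9*, reached 99.3 to 130 CPM in basal WT and, without overlap, 135 to 171 CPM in basal KO cells, and 171 to 268 and 169 to 250 CPM with cytokines. Of these markers 5 passed the filter, edgeR and DESeq2 called none between genotypes (1 under basal conditions and 0 with cytokines at an unadjusted p under 0.05), and *Shh* was at 0 in all 26 libraries. The part of these cell types in the differences of the 7 genes was not tested.

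The genes whose log2 CPM followed each of the 7 most closely over the 26 libraries, among 11854 genes, are given as a description, since libraries share mice and groups. *Apod* was close to *Col4a2* (Pearson's r 0.94), a basement membrane collagen chain, and *Met* (0.93), the receptor of hepatocyte growth factor. *Gpx3* was nearest to *Inhbb* (0.86), a subunit of activin B, *Axl* (0.86) and *Lrp8* (0.85). *Plac8* was nearest to *Anxa6* (0.91), *Myh10* (0.90), the heavy chain of a non-muscle myosin, and *Cachd1* (0.89). *Aqp3* was nearest to *Nudt5* (0.98), *Adamts1* (0.97) and *Thbd* (0.97), or thrombomodulin, which had 42.7, 10.9, 31.7 and 12.1 CPM in basal WT, treated WT, basal KO and treated KO cells. *Serpina3n* was nearest to *Stard8* (0.96), *Tns4* (0.95) and *Arhgef40* (0.95), and *Vnn1* to *Cbr2* (0.98), *Rassf10* (0.98) and *Ptp4a2* (0.98). *Aadacl2* was nearest to *Slc40a1* (0.96), the iron exporter ferroportin, *Fgfr3* (0.95) and *Wnt16* (0.95). With group means subtracted, the nearest gene was *Alg8* for *Apod* (0.70), *Ntan1* for *Gpx3* (0.70), *Tpi1* for *Plac8* (0.78), *Fkbp5* for *Aqp3* (0.78), *Traf3* for *Serpina3n* (0.78), *Tagln2* for *Vnn1* (0.79) and again *Slc40a1* for *Aadacl2* (0.73). By Spearman's rho between 0 and 2 of the 3 nearest genes were shared with Pearson's r, so the order among near neighbours is loose.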

How the data were processed

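Genes were read from 26 RNA libraries of primary keratinocytes of 5 WT and 8 KO mice (strand-specific mRNA, paired ends). The authors aligned reads with STAR 2.7.10b to mm39 and deposited raw counts per gene from featureCounts 2.0.6 with GENCODE vM31. The authors also deposited log2 values of normalized counts, which entered as an alternative. Whether strand was used in counting was not given in the sources used here. Of the deposited counts from 1 to 10, 83.8% were even.

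The members and gene lists were chosen with earlier results of these data known, so the genotype contrasts and the interaction of the 7 genes carry no p. Named genes were the members, the genes most correlated with each (log2 CPM, prior count 1, mean normalized count over 100), list genes called with the largest fold changes, neighbouring or overlapping genes, and leading cell type markers. A gene that this rule names is not reported here.

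Counts were fitted with edgeR 4.0.16 in R 4.3.3 (TMM, quasi-likelihood, 4 groups, no covariate) for genes with a mean normalized count over 10, and adjusted by Benjamini-Hochberg. Calls needed an adjusted p under 0.1 with a change of more than 1.5-fold, as in the study. The averaged cytokine effect weights WT by 5 and KO by 8 of 13 mice. Alternatives were DESeq2 1.42.0, limma 3.58.1 on the deposited log2 values, other filters, scalings and thresholds, fewer groups, the mouse as a block, and each mouse left out. The fit was tested on simulated counts. Basal and treated libraries with 1 number came from the same mouse, and their deviations from group means correlated between 0.000509 and 0.254 (median 0.106). No libraries of a group agreed within counting noise (lowest chi-square per degree of freedom 7.22). Positions, exon lengths, exon overlaps and transcript windows are from GRCm39 with a GENCODE release other than the vM31 used for the counts. Promoters are from RefSeq on GRCm38.p6. With totals of 42072745 to 78102858, counting error adds to the spread between mice for genes near 1 CPM. It adds more if both mates of a fragment were counted. CPM of *Vnn1* under basal conditions rest on 2 to 66 reads.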

Additional observations from a re-analysis of the deposited data

How the results depend on the processing

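The averaged cytokine effect of all 7 genes kept its direction and its call under each of 21 alternatives, with adjusted p up to 4.64e-05 (*Plac8*), and no genotype difference or interaction of the 7 changed sign. The basal difference of *Apod* moved to 2.57 without WT replicate 4 (1.76 to 2.57 as single mice were left out). Counts over all genes moved more. The interaction gave 37 genes, against 60 with DESeq2, 80 with the replicate block (each mouse as a block), 21 at an adjusted p under 0.05, 166 without a fold threshold and 18 to 92 as mice were left out. The genotype difference with cytokines gave 119, against 180 from only the groups compared, 54 at an adjusted p under 0.05, 479 without a fold threshold and 44 (without WT replicate 3) to 558 (without WT replicate 1). The basal difference gave 453, against 2303 without a fold threshold and 341 to 824. The averaged cytokine effect gave 2291, against 3904 without a filter and 8178 without a fold threshold. With a sex score as a covariate, 459 genes were called between genotypes under basal conditions, 131 with cytokines and 38 in the interaction. Counts within gene lists moved by over 1.5 times in 66 cases, 36 of them with a mouse left out and 12 without a fold threshold. The block changed no call of the 7 genes, and the cause of the moves was not tested. Depth limits *Vnn1* and *Apod* in basal WT cells, with 2 to 22 and 18 to 104 reads. It also limits *Serpina3n* in basal WT cells (12 to 108 reads) and *Aadacl2* in treated WT (12 to 76) and treated KO cells (6 to 50).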
